A study of Mus musculus with 6 samples.

Results

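The cytochrome P450 genes of families 1 to 4 were described in 6 mouse liver tumors, 3 labelled WT (Prmt3 f/f) and 3 labelled Prmt3-KO (Prmt3 LKO). Members were all genes of the expression table whose symbol has the form Cyp, a family digit from 1 to 4, a subfamily letter and a number, which gave 75 of the 34745 genes listed. They fall into 21 subfamilies on 9 chromosomes. The rule leaves out 21 similar symbols, 15 of them pseudogenes with the ending -ps, and also Cyp4a12a, Cyp4a12b, Cyp3a41a and Cyp3a41b, whose names end in a letter.

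Both genotypes carry floxed Prmt3, the gene of an arginine methyltransferase, and Prmt3 LKO mice also carry Alb-Cre, a Cre recombinase driven by the albumin promoter. The deletion is therefore aimed at hepatocytes, and which other cells of a tumor keep the gene was not tested. All mice had received the carcinogen diethylnitrosamine (DEN), 25 mg/kg, when 2 weeks old and 10% carbon tetrachloride (CCl4) in oil at 0.5 ml/kg from 6 weeks, and tumors were taken at 26 weeks. The question put to the P450 genes was whether their transcripts differ between the genotypes, and how far they differ between tumors of the same genotype.

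Cytochromes P450 of families 1 to 3 are haem enzymes of the endoplasmic reticulum that oxidize drugs, pollutants, steroids and bile acids, and most of their liver output is made in hepatocytes. Family 4 enzymes mainly hydroxylate the ends of fatty acids and eicosanoids. Several are switched on by nuclear receptors and related sensors (AhR for Cyp1a, CAR for Cyp2b, PXR for Cyp3a, PPARalpha for Cyp4a). Cyp2e1 is the enzyme best known for turning CCl4 into a reactive radical, and Cyp2e1 and the Cyp2a enzymes activate nitrosamines.

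Total counts lay between 18440244 and 27976598 per tumor, and levels of a gene are given as CPM, its count relative to the scaled total of the tumor. With 3 counts taken as the limit for a count of 0, levels up to 0.105 CPM in the deepest and 0.171 CPM in the shallowest tumor could go unseen, by counting error only. Of the 75 members, 54 passed the filter on low counts and were tested among 13892 genes. Prmt3 itself was at 6.60, 8.49 and 10.2 CPM in Prmt3 f/f tumors 7, 66 and 71 and at 2.80, 2.03 and 3.82 CPM in Prmt3 LKO tumors 92, 93 and 94, counted over the whole gene, so that reads outside the deleted part are included. Defining hepatocyte genes were high in every tumor, with Alb between 108100 and 164600 CPM and Hnf4a between 622 and 759 CPM. Xist was at most 0.400 CPM and Ddx3y at least 48.7 CPM, so all 6 tumors carried the transcripts of males. The labels name tumors by number and do not say whether each came from its own mouse, so p-values measure only the spread between these samples.

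Cyp2a4 and Cyp2a5 were both lowest in Prmt3 LKO tumor 94, and Cyp2a4 was low in that tumor only. A Cyp2c cluster held 2 of the 4 members with an unadjusted p under 0.05. Sequences upstream of this pair and this cluster, which are described below, are shown first. They are RefSeq sequences of GRCm38.p6, written 5′ to 3′ on the strand of the gene and ending before the gene start that lies further upstream in RefSeq or in the table. Capitals mark CAAAGTCC, a half-site of the liver factor HNF4.
Cyp2a4 (chr7:26307042-26307168, plus strand): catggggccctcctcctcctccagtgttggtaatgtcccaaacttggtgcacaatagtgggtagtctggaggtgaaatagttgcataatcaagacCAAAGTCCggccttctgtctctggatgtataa
Cyp2a5 (chr7:26835189-26835304, plus strand): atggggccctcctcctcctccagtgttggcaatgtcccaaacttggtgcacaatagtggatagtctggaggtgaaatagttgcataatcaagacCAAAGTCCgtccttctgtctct
Cyp2c40 (chr19:39812815-39812964, minus strand): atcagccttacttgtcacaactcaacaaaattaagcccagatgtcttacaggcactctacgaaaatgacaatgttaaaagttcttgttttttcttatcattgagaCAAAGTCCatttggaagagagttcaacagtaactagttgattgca
Cyp2c67 (chr19:39649052-39649192, minus strand): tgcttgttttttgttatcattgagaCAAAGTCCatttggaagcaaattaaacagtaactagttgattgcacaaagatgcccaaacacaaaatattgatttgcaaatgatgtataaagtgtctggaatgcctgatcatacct
Cyp2c68 (chr19:39741102-39741251, minus strand): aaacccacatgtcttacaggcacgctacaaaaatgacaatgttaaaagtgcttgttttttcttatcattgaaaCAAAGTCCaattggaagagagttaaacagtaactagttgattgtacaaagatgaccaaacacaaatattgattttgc
Cyp2c69 (chr19:39886770-39886919, minus strand): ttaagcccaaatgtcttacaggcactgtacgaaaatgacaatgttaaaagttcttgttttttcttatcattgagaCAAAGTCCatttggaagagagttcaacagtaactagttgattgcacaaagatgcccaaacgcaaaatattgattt

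The genes shown resemble others of their subfamily upstream of the gene, to differing degrees. Over the 250 bases before the start, Cyp2a4 and Cyp2a5 had 245 identical aligned bases and 4 different ones, and Cyp2c40 and Cyp2c69 had 217 identical and 3 different. The other pairs of the Cyp2c genes shown had 10 to 14 different bases over 170 to 246 aligned bases. Promoters were matched by symbol for 62 of the 75 members. CAAAGTCC, searched on both strands of the 250 bases after the sequences had been seen, was present upstream of 12 of the 62 (19.4%) and of 1.20% of all 32851 promoters. The 12 are Cyp2a4, Cyp2a5, Cyp2c40, Cyp2c65 to Cyp2c70, Cyp3a11, Cyp3a16 and Cyp4f18, of which 9 belong to the Cyp2a and Cyp2c clusters of related copies. AGGTCA, the half-site of many nuclear receptors, was present upstream of 25.8% of the 62 members and in 14.0% of all promoters. For GCGTG, the core letters bound by AhR, these shares were 19.4% and 28.2%. Shares of members are counted by gene and shares of all by promoter. No motif of the 3 contains another, and a match is a description of the letters, not a binding site.

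The families together took a similar share of the RNA in both genotypes. Their summed counts were 0.984%, 1.23% and 1.55% of all counts in Prmt3 f/f tumors 7, 66 and 71, and 1.47%, 1.04% and 1.301% in Prmt3 LKO tumors 92, 93 and 94. The means were 1.26% ± 0.282 (SD, n = 3) and 1.27% ± 0.216 (SD, n = 3), and the groups overlap. In bulk tumor RNA, fewer cells of a type and less RNA per cell cannot be told apart.

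Per length, the Cyp2a subfamily led in 5 of the 6 tumors. Levels between genes are given here as FPKM, which divide by the length of the gene. Cyp2a held 56.5%, 46.7% and 36.0% of the summed FPKM of all members in Prmt3 f/f tumors 7, 66 and 71, and 45.9%, 54.8% and 10.5% in Prmt3 LKO tumors 92, 93 and 94. The low share of tumor 94 stands apart from the other 5. Cyp2d held between 22.2% and 30.4% in every tumor and was the steadiest of the large subfamilies. Cyp3a ranged from 5.31% in tumor 66 to 19.7% in tumor 94, and Cyp2e, which is Cyp2e1 alone, from 2.04% in tumor 7 to 12.9% in tumor 94. Cyp2c stayed between 4.41% and 9.81% although it has 15 members, the most of any subfamily. A low Cyp2a raises the shares of the others in tumor 94 by construction. In summed FPKM, Cyp2e was at 629 in tumor 94 and 740 in tumor 71, and Cyp2d at 1484 and 1590. Cyp3a, at 965 and 649, and Cyp2c, at 480 and 426, were higher in tumor 94 in FPKM too. Over the 6 tumors, mean FPKM was 1932 for Cyp2a4, 524 for Cyp2d26, 462 for Cyp2e1, 441 for Cyp2d10, 367 for Cyp3a11, 299 for Cyp2d9 and 259 for Cyp2a5.

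**Figure D1:**
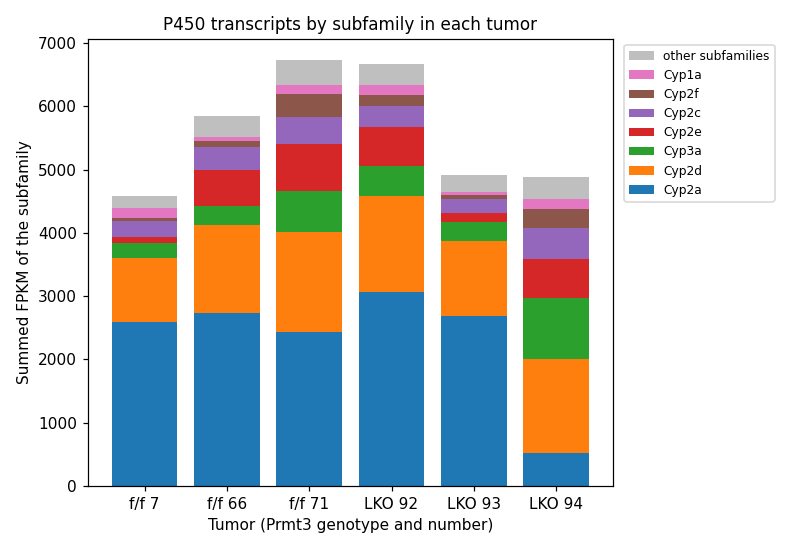
Summed FPKM of the P450 subfamilies (vertical axis, from 0) in each of the 6 tumors (horizontal axis, genotype and number), stacked by subfamily. The Cyp2a block is between 2426 and 3061 FPKM in 5 tumors and 515 FPKM in Prmt3 LKO tumor 94.

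No P450 gene differed between the genotypes at the limits of an adjusted p under 0.05 and a 2-fold difference with edgeR's quasi-likelihood test. Of all 13892 genes tested, 0% were called lower and 0% higher, so the absence of calls is not particular to P450 genes. DESeq2 and limma-voom also called 0 members in either direction, and the share of all genes they called is not given. At these limits the paper reported genes both higher and lower in Prmt3 LKO tumors. Prmt3 itself was not called by edgeR's quasi-likelihood test either, with an adjusted p of 0.592. At an unadjusted p under 0.05, 4 of 54 members were lower in Prmt3 LKO tumors, beside 4.37% of all genes, and 0 were higher, beside 2.20% of all genes. Every Prmt3 LKO tumor lay below every Prmt3 f/f tumor in 3 members, beside 6.59% of all genes, and above in 0, beside 5.57%. The log2 fold change was below 0 in 24 members and above 0 in 30, with a median of 0.048, where the median of all genes tested was 0.000426. The smallest adjusted p of a member was 0.592. In 50 of the 54 members the difference between the group means was smaller than the range within at least 1 of the groups. In 44 it was smaller than the range within both. The same counts over all genes are not given, so these describe the members only.

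**Figure D2:**
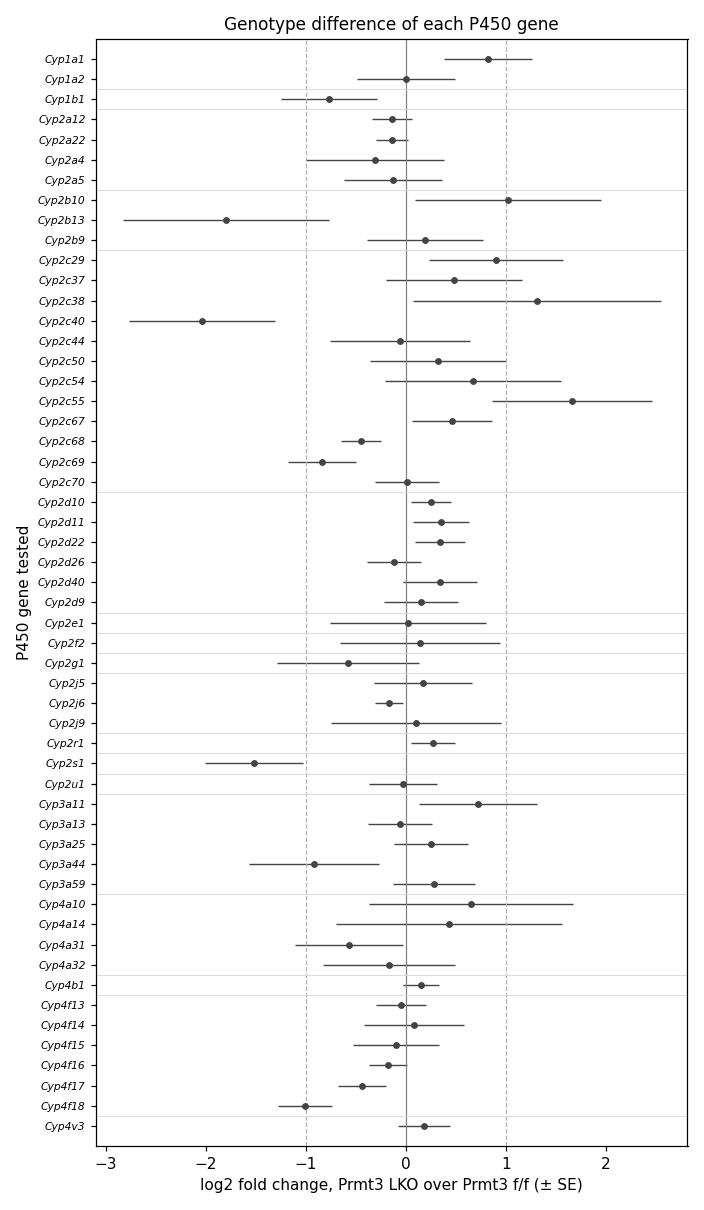
Log2 fold change of each of the 54 P450 genes tested, Prmt3 LKO over Prmt3 f/f (horizontal axis), with its standard error as a bar, 1 row per gene in order of subfamily. Dashed lines mark a 2-fold difference. Points run from -2.04 for Cyp2c40 to 1.66 for Cyp2c55, and 7 are at or past a 2-fold difference.

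The 4 members lower at an unadjusted p were Cyp2c40, Cyp2c69, Cyp2s1 and Cyp4f18. Cyp4f18, an omega-hydroxylase of leukotriene B4 known from neutrophils, was at 5.40, 5.13 and 3.48 CPM in Prmt3 f/f tumors 7, 66 and 71 and at 2.11, 2.21 and 2.61 CPM in Prmt3 LKO tumors 92, 93 and 94. The groups did not overlap, with a log2 fold change of -1.01 (SE 0.27, unadjusted p = 0.00571 and adjusted p = 0.592 by edgeR's quasi-likelihood test) and 0.1 by an exact two-sided permutation test, the smallest p that 3 tumors against 3 allow. All 8 leukocyte markers of a list had a log2 fold change below 0, 5 of them with an unadjusted p under 0.05 and 5 with groups that did not overlap, beside 4.37% and 6.59% of all genes. Their summed level ran from 433 to 996 CPM in Prmt3 f/f and from 296 to 413 CPM in Prmt3 LKO tumors. Lyz2 was the largest part of the sum in every tumor, at 386, 674 and 160 CPM against 133, 118 and 162 CPM, and its groups overlap. None of the 8 was at 0, but Cd3e had only 3 counts in Prmt3 LKO tumor 92. Among the 8 markers, Itgam, which marks neutrophils and other myeloid cells, was at 8.95, 17.4 and 3.09 CPM against 1.43, 0.857 and 1.06 CPM. The part of these cells in the level of Cyp4f18 was not tested.

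Cyp2s1, a P450 found mostly in epithelia outside the liver, was at 2.26, 1.31 and 2.25 CPM in Prmt3 f/f tumors and at 0.286, 0.766 and 0.954 CPM in Prmt3 LKO tumors. The groups did not overlap, and the log2 fold change was -1.52 (SE 0.49, unadjusted p = 0.0156, adjusted p = 0.648). The level in tumor 92 rests on 5 counts. Krt19, Krt7, Epcam, Sox9 and Spp1, a list for bile duct epithelium, had summed levels from 327 to 4100 CPM in Prmt3 f/f and from 206 to 356 CPM in Prmt3 LKO tumors, of which Spp1 made up most, and 4 of the 5 had a log2 fold change below 0. Their part in the level of Cyp2s1 was not tested.

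Cyp2c40 and Cyp2c69, neighbours on chromosome 19 whose upstream sequences are shown above, share 20.3% and 20.2% of their 150-base transcript windows with other Cyp2c genes, so their reads could be split between copies. Cyp2c40 was at 39.4 CPM in Prmt3 f/f tumor 7, 8.35 CPM in 66 and 5.06 CPM in 71, and at 3.94, 5.64 and 3.16 CPM in Prmt3 LKO tumors 92, 93 and 94. Tumor 7 set this difference, and the groups overlap. The log2 fold change was -2.04 (SE 0.73, unadjusted p = 0.0250, adjusted p = 0.684), and -0.66 without tumor 7. Cyp2c69 was at 2.08, 1.31 and 1.72 CPM against 1.09, 0.857 and 0.904 CPM, with a log2 fold change of -0.84 (SE 0.34, adjusted p = 0.742) and groups that did not overlap.

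The spread between tumors of the same genotype was, at the median, wider for P450 genes than for all genes tested. The highest of the 3 Prmt3 f/f tumors was at least 2 times the lowest in 29 of 54 members (53.7%), beside 19.5% of all genes tested. Among the 3 Prmt3 LKO tumors it was at least 2 times the lowest in 30 members (55.6%), beside 17.2% of all genes. The median range of a member, as the highest minus the lowest log2 CPM, was 1.15 in Prmt3 f/f and 1.29 in Prmt3 LKO tumors, where the medians of all genes were 0.52 and 0.44. Leaving out a single tumor narrowed this spread, in part by construction, since a range of 2 tumors cannot exceed that of 3. Without tumor 7, 8 members had a 2-fold range in Prmt3 f/f (6.92% of all genes) and the median range was 0.63 (all genes 0.23), and without tumor 93, 17 members had one in Prmt3 LKO (7.82% of all genes) and the median was 0.40 (all genes 0.24). With all tumors, a 2-fold range was present in both genotypes for 21 members and in neither for 16, and the range was larger in Prmt3 f/f for 28 members and in Prmt3 LKO for 26. Ranges of at least 8-fold were counted in 8 members in Prmt3 f/f and in 7 in Prmt3 LKO tumors. For the 8-fold ranges, and the 2-fold ranges in both or neither genotype, no share of all genes is given. The wide spread is not confined to families 1 to 4. The 11 tested P450 genes of higher families had median ranges of 1.64 and 1.39. For 45 tested UDP-glucuronosyl-, glutathione S- and sulfotransferases they were 1.05 and 0.78.

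**Figure D3:**
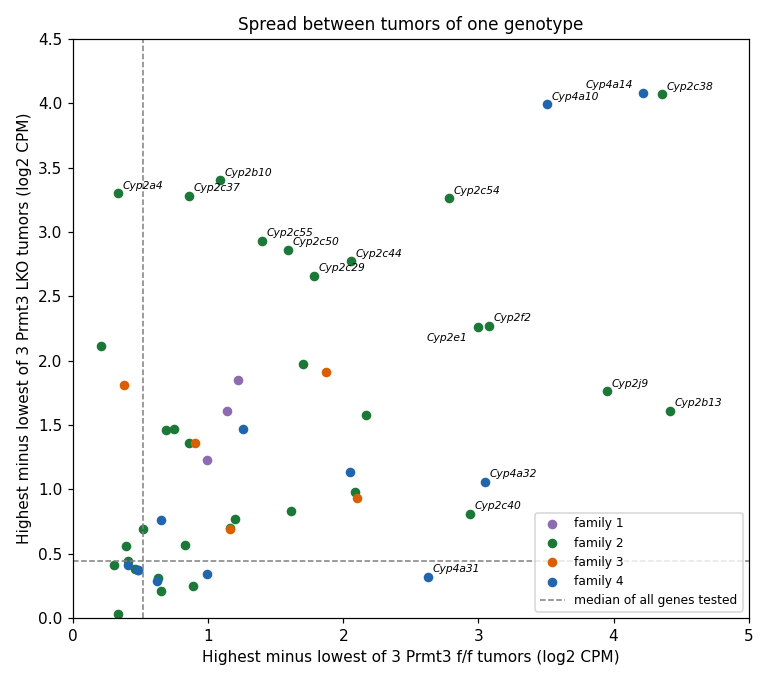
Range of each of the 54 P450 genes tested within the 3 Prmt3 f/f tumors (horizontal axis) and within the 3 Prmt3 LKO tumors (vertical axis), as highest minus lowest log2 CPM, colored by family. Dashed lines are the medians of all genes tested, 0.52 and 0.44. Cyp4a10, Cyp4a14 and Cyp2c38 lie at the upper right, and Cyp2a4 has 0.33 in Prmt3 f/f and 3.30 in Prmt3 LKO tumors.

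The same tumors were low for many members. Prmt3 f/f tumor 7 was the lowest of the 6 in 25 members (46.3%, beside 23.6% of all genes) and Prmt3 LKO tumor 93 in 14 (25.9%, beside 15.7%). These 2 tumors, of different genotype, were the 2 lowest in 27 of 54 members, beside 11.5% of all genes. Prmt3 LKO tumor 94 was the highest in 18 members (33.3%, beside 15.4% of all genes) and Prmt3 f/f tumor 71 in 16 (29.6%, beside 15.6%), and they were the 2 highest in 21 members, beside 6.26% of all genes. Tumor 93 was the highest in 0 members and tumor 71 the lowest in 1, Cyp2b13. Members do not count as independent tumors here, and the order was noted after the values were seen. Neither low tumor had the smallest or the largest total count. Of the high tumors, 71 had the largest total count, 27976598. The other, 94, had 20165045, below the 21040087 of tumor 7 and the 21299186 of tumor 93. The part of depth in this order was not tested.

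**Figure D4:**
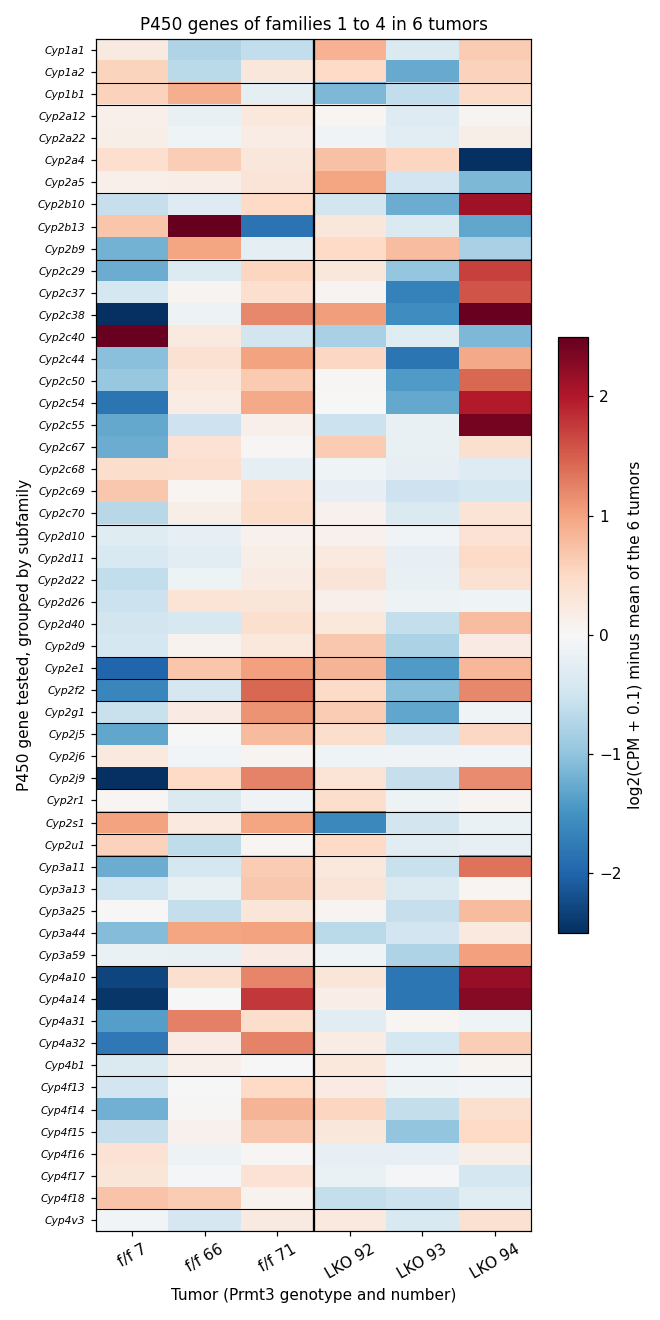
Log2(CPM + 0.1) of the 54 P450 genes tested (rows, by subfamily, lines between subfamilies) in 6 tumors (columns, genotypes apart at the thick line), each minus the mean of its row, with colors capped at 2.5 in both directions. Columns f/f 7 and LKO 93 are mostly blue, below the mean of the row, and columns f/f 71 and LKO 94 mostly red, above it.

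Members of family 1 are the classical targets of the aryl hydrocarbon receptor. Cyp1a2, a liver enzyme that oxidizes caffeine and aromatic amines, was at 308, 133 and 257 CPM in Prmt3 f/f tumors 7, 66 and 71 and at 297, 87.6 and 315 CPM in Prmt3 LKO tumors 92, 93 and 94. Unlike most members it was highest of the Prmt3 f/f tumors in tumor 7, and its log2 fold change was 0.00 (SE 0.49). Cyp1a1, the inducible enzyme of this pair, lay between 1.17 and 3.83 CPM in all tumors and had a log2 fold change of 0.82 (SE 0.44, adjusted p = 0.812). Cyp1b1, which is expressed mainly in mesenchymal cells, was at 5.07, 6.39 and 2.85 CPM against 1.49, 2.16 and 4.72 CPM, a log2 fold change of -0.77 (SE 0.48, adjusted p = 0.867). Its highest Prmt3 f/f tumor, 66, and its highest Prmt3 LKO tumor, 94, are also the highest of their genotype in the summed stellate and fibroblast markers, at 888 and 630 CPM, beside 357 to 579 CPM in the other 4 tumors. The part of these cells in Cyp1b1 was not tested.

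Within the Cyp2a subfamily, Cyp2a4 set 1 tumor apart from the rest. Cyp2a4, a steroid 15-alpha-hydroxylase, was at 3648, 4182 and 3330 CPM in Prmt3 f/f tumors 7, 66 and 71, and at 4533, 3997 and 459 CPM in Prmt3 LKO tumors 92, 93 and 94. The value of tumor 94 was 9.88-fold below that of tumor 92, while the 3 Prmt3 f/f tumors differed by 1.26-fold. Cyp2a5, a coumarin 7-hydroxylase that also metabolizes nitrosamines, was at 808, 831 and 932 CPM in Prmt3 f/f and at 1476, 537 and 342 CPM in Prmt3 LKO tumors. It too was lowest in tumor 94, and its values in Prmt3 LKO tumors lay on both sides of the 3 Prmt3 f/f values. The log2 fold change was -0.31 (SE 0.69) for Cyp2a4 and -0.13 (SE 0.49) for Cyp2a5, and without tumor 94 it was 0.20 and 0.23. The ratio of Cyp2a4 to Cyp2a5 in FPKM ran from 5.57 to 13.5 in the other tumors and was 2.44 in tumor 94. Only 4.22% and 4.56% of their 150-base transcript windows are shared with other genes, but how the reads of the pair were parted was not tested. Cyp2a12 and Cyp2a22 of the same subfamily stayed within 474 to 716 CPM and 26.3 to 35.9 CPM in all 6 tumors, tumor 94 included.

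In the Cyp2b subfamily, Cyp2b10 is the standard target of CAR, and Cyp2b9 and Cyp2b13 are known as female-biased genes of the mouse liver. Cyp2b9 was at 44.3, 200 and 85.1 CPM in Prmt3 f/f tumors and at 143, 173 and 57.8 CPM in Prmt3 LKO tumors, so the tumors that were high for other members, 71 and 94, were not high for it. Its log2 fold change was 0.19 (SE 0.58). Cyp2b13 was at 1.71, 6.39 and 0.211 CPM against 1.26, 0.766 and 0.352 CPM, with a log2 fold change of -1.80 (SE 1.03, adjusted p = 0.834) that became -0.26 without tumor 66. Cyp2b10 was under 1 CPM in 5 tumors and at 3.27 CPM in tumor 94. Its log2 fold change of 1.02 (SE 0.93) was -0.93 without tumor 94.

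Of the 15 Cyp2c genes, 12 were tested. Tumors 7 and 93 were the 2 lowest, and 71 and 94 the 2 highest, in 8 of the 12 each. Cyp2c29, an arachidonic acid epoxygenase responsive to CAR, was at 25.5, 47.4 and 87.5 CPM in Prmt3 f/f and at 73.5, 30.7 and 195 CPM in Prmt3 LKO tumors. Its log2 fold change was 0.90 (SE 0.67, adjusted p = 0.902) and -0.04 without tumor 94. Cyp2c37, Cyp2c50 and Cyp2c54 of the same gene cluster reached 35.0, 160 and 57.6 CPM in tumor 94 and stood at 3.52, 21.9 and 5.91 CPM in tumor 93. Cyp2c38 had 0 counts in tumor 7 and 4.47 CPM in tumor 94. Cyp2c55, a hydroxylase of arachidonic acid, was between 1.43 and 3.94 CPM in 5 tumors and at 19.3 CPM in tumor 94, so that its log2 fold change of 1.66 (SE 0.80, adjusted p = 0.776) was 0.10 without that tumor. Cyp2c70, the enzyme that makes muricholic acids, the rodent bile acids, was at 165, 294 and 369 CPM against 288, 209 and 340 CPM, in the common order but with a narrower range. Cyp2c68 went another way, with 174, 172 and 111 CPM in Prmt3 f/f and 120, 112 and 103 CPM in Prmt3 LKO tumors, which overlap, and a log2 fold change of -0.45 (SE 0.20).

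Members of the Cyp2d subfamily, whose human counterpart is the drug enzyme CYP2D6, had narrower ranges than the P450 genes as a whole, with medians of 0.76 in Prmt3 f/f and 0.63 in Prmt3 LKO tumors on the log2 scale, which are above the 0.52 and 0.44 of all genes tested. Within Prmt3 f/f tumors 0 of the 6 tested members reached a 2-fold range, and within Prmt3 LKO tumors 2 did, beside 19.5% and 17.2% of all genes. Cyp2d26 was at 579, 1076 and 1042 CPM against 922, 774 and 787 CPM. Cyp2d9, a male-biased steroid 16-alpha-hydroxylase, was at 348, 502 and 563 CPM in Prmt3 f/f tumors and at 752, 273 and 545 CPM in Prmt3 LKO tumors, with a log2 fold change of 0.15 (SE 0.37). Both groups of Cyp2d9 overlap.

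The bioactivating enzymes Cyp2e1 and Cyp2f2 had wide ranges in both genotypes and nearly equal group means. Cyp2e1 was at 166, 1056 and 1329 CPM in Prmt3 f/f tumors 7, 66 and 71 and at 1170, 244 and 1164 CPM in Prmt3 LKO tumors 92, 93 and 94. Tumors 7 and 93 thus had the low values, 8.01-fold and 4.80-fold below the highest of their genotype. The group means were 850 ± 608 CPM and 859 ± 533 CPM (SD, n = 3), a log2 fold change of 0.02 (SE 0.78). Cyp2f2, known for the bioactivation of naphthalene, was at 95.8, 222 and 809 CPM against 413, 143 and 689 CPM, a log2 fold change of 0.14 (SE 0.80). It had the same 2 low tumors, but tumor 66 was near them for Cyp2f2 and far above them for Cyp2e1. In FPKM, Cyp2e1 was 5.88 times Cyp2f2 in tumor 66 and between 2.03 and 3.49 times in the other 5.

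Other members of family 2 ranged from even to uneven. Cyp2j6 was at 113, 90.0 and 99.9 CPM in Prmt3 f/f and at 88.5, 89.8 and 90.7 CPM in Prmt3 LKO tumors, a range of 0.03 on the log2 scale in the latter. Cyp2j5, an epoxygenase of liver and kidney, was at 52.9, 128 and 226 CPM against 176, 94.5 and 186 CPM. Cyp2j9 was at 0.277 CPM in tumor 7 and between 1.53 and 5.59 CPM in the other 5. Cyp2r1, a vitamin D 25-hydroxylase, lay between 5.31 and 9.31 CPM and Cyp2u1, a fatty acid hydroxylase, between 8.58 and 19.9 CPM. Cyp2g1, which is known from the olfactory mucosa, was at most 1.41 CPM.

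The Cyp3a subfamily, targets of PXR with a leading part in drug oxidation, was dominated by Cyp3a11. It was at 672, 1168 and 2460 CPM in Prmt3 f/f tumors 7, 66 and 71 and at 1918, 1085 and 4089 CPM in Prmt3 LKO tumors 92, 93 and 94. The highest value, in tumor 94, was 6.09-fold the lowest, in tumor 7, and the groups overlap. The log2 fold change was 0.72 (SE 0.59, adjusted p = 0.913) and 0.07 without tumor 94. Cyp3a25 was at 218, 145 and 271 CPM against 229, 147 and 379 CPM, a log2 fold change of 0.25 (SE 0.37). Cyp3a13, a family member also found in the gut, was at 81.3, 101 and 182 CPM against 144, 88.9 and 118 CPM. Cyp3a44, a female-biased gene, was between 0.323 and 1.69 CPM, and Cyp3a41a, a female-biased gene outside the rule, had 0 counts in every tumor.

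Cyp4a10 and Cyp4a14, fatty acid omega-hydroxylases that respond to PPARalpha, had the widest ranges of the members with a mean of at least 10 CPM. Cyp4a10 was at 5.44, 35.9 and 62.8 CPM in Prmt3 f/f and at 33.4, 7.62 and 123 CPM in Prmt3 LKO tumors, 11.5-fold and 16.1-fold within a genotype. Cyp4a14 was at 1.29, 7.55 and 25.8 CPM against 8.40, 2.07 and 36.5 CPM. Both genes had tumors 7 and 93 as the 2 lowest and 71 and 94 as the 2 highest. Their log2 fold changes were 0.65 (SE 1.02) and 0.43 (SE 1.13), and -0.76 and -1.16 without tumor 94. Cyp4a12a, a male-biased gene outside the rule, was at 12.0, 32.4 and 67.3 CPM against 40.8, 15.2 and 103 CPM. Cyp4a31 did not share this order, with 8.12, 50.7 and 28.6 CPM in Prmt3 f/f and 17.5, 21.9 and 19.6 CPM in Prmt3 LKO tumors.

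Cyp4a32, the other tested gene of the subfamily, was at 1.34, 5.64 and 11.7 CPM against 5.60, 3.56 and 7.53 CPM.

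The tested genes of the Cyp4b, Cyp4f and Cyp4v subfamilies had median ranges of 0.37 to 0.80 on the log2 scale, below those of Cyp4a. Cyp4b1 was at 16.2, 22.6 and 20.7 CPM against 25.0, 19.3 and 21.6 CPM, and the largest of 6 values was under 2 times the smallest. Its log2 fold change was 0.15 (SE 0.18). It is abundant in lung and kidney, and 3 tested kidney markers (Kap, Slc34a1 and Umod) were higher in every Prmt3 LKO tumor at low levels, beside 5.57% of all genes, with 6 markers of the list summing to between 2.85 and 4.06 CPM in Prmt3 f/f and between 8.39 and 12.0 CPM in Prmt3 LKO tumors. Slc22a6 was at 0 counts in the Prmt3 f/f tumors. Of the lung markers Sftpc and Scgb1a1 were at 0 counts in every tumor, and Sftpa1 was between 0.0923 and 1.72 CPM. The part of such RNA in Cyp4b1 or Cyp2j5 was not tested. Cyp4f14, a leukotriene B4 omega-hydroxylase of the liver, was at 42.1, 98.8 and 175 CPM against 142, 64.5 and 128 CPM, lowest in tumors 7 and 93, with a log2 fold change of 0.08 (SE 0.50). Cyp4v3, a fatty acid hydroxylase of several tissues, was at 236, 184 and 288 CPM against 293, 189 and 319 CPM.

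**Figure D5:**
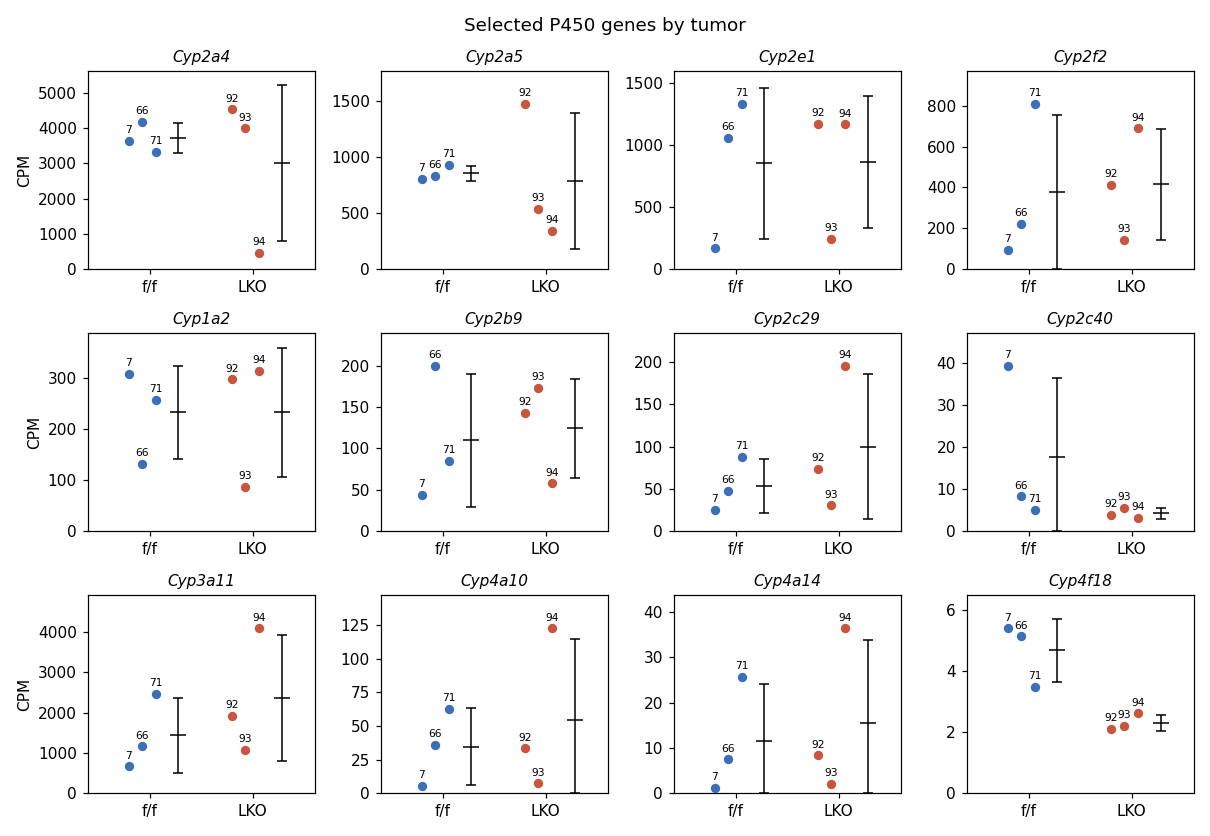
CPM (vertical axes, each from 0) of 12 P450 genes in Prmt3 f/f (blue) and Prmt3 LKO tumors (red), 1 point per tumor with its number, and beside them the mean with 1 SD of 3 tumors as a bar, drawn down to 0 where the SD exceeds the mean. Cyp2a4 has 1 low point, tumor 94, and Cyp2e1 has 1 low point in each genotype, tumors 7 and 93.

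The 21 members not tested did not pass the filter on low counts. In 9 no count was found in any tumor, 7 had at most 3 counts in every tumor, and 5 had more than 3 counts in some tumor, with 22 counts at most. These 5 are Cyp2c39, Cyp2d12, Cyp3a16, Cyp3a57 and Cyp4f39. Cyp2c39 had 8 to 17 counts and Cyp2d12 had 5 to 10 counts in every tumor. Cyp3a16, a gene of the fetal liver, had 0, 20 and 6 counts in Prmt3 f/f and 0, 1 and 0 counts in Prmt3 LKO tumors. Cyp3a57 had 5, 3 and 11 counts against 13, 22 and 9 counts.

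Genes that regulate or supply P450 enzymes were counted from lists written for this description, beside the same 4.37% and 2.20% of all genes. Of 17 tested receptors and liver factors, 1 was lower at an unadjusted p under 0.05 and 0 were higher. The lower gene was Bcl6, a repressor linked to sex-biased liver expression, at 39.0, 48.5 and 57.7 CPM against 35.4, 20.0 and 17.2 CPM. Nr1i3, which encodes CAR, was at 8.86, 40.9 and 53.7 CPM in Prmt3 f/f and at 40.4, 9.92 and 51.8 CPM in Prmt3 LKO tumors, low in the same 2 tumors as Cyp2e1 and Cyp4a10. Ppara, which encodes PPARalpha, was at 40.3, 88.6 and 117 CPM against 71.3, 62.4 and 92.96 CPM. In this list tumors 7 and 93 were the 2 lowest in 9 of 17 genes, beside 11.5% of all genes tested.

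Of 10 genes for electron and haem supply, 0 passed an unadjusted p under 0.05 in either direction. Por, the reductase that passes electrons to these P450 enzymes, was at 163, 357 and 445 CPM against 287, 208 and 314 CPM. Alas1, the rate-limiting enzyme of haem synthesis, was at 87.5, 238 and 349 CPM against 354, 224 and 515 CPM, lowest in tumor 7 and highest in tumor 94. For targets of the same sensors outside the P450 families, 0 of 2 tested AhR targets and 2 of 8 PPARalpha targets were lower, and 0 of either were higher. The 2 lower PPARalpha targets were Vnn1 and Pdk4.

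Tumors 7 and 93 were also the 2 lowest in liver genes of both zones of the lobule, in 7 of 12 tested pericentral genes outside the P450 families and in 7 of 10 periportal genes, beside 11.5% of all genes. Glul, the pericentral glutamine synthetase, was at 51.1, 162 and 169 CPM against 125, 82.0 and 109 CPM, and Cps1, the first enzyme of the urea cycle, was at 957, 2163 and 2962 CPM against 2813, 1155 and 3004 CPM. They were the 2 lowest in 4 of 8 tested male-biased genes and in 3 of 5 endothelial markers, all 5 of which were lowest in tumor 7. They were the 2 lowest in 1 of 9 hepatocyte markers, near the share of all genes, and in 0 of 8 leukocyte markers. None of the pericentral, periportal, male-biased or female-biased genes outside the P450 families passed an unadjusted p under 0.05 in either direction, out of 12, 10, 8 and 3 tested.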

How the data were processed

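RNA of 6 liver tumors was sequenced as paired ends and aligned by the authors to GRCm38 with HISAT2 2.0.4, and the submitters' processing notes also name StringTie 1.3.0 and bcl2fastq 2.19. The counting tool, annotation release and use of strand are not given in the sources used here. The authors deposited for each gene a whole-number count, not normalized, and an FPKM value that the authors derived from the count, gene length and total count. Over 8975 genes whose count was 100 or more throughout, the length implied by count and FPKM agreed between tumors to a ratio of 1.00. Rows without a gene (1013830 blank rows) were left out, and 0 value columns were unused.

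Members and gene lists were chosen with earlier results of these data known. Members with textbook roles, with an unadjusted p under 0.05 or groups without overlap, with the highest FPKM of their subfamily or with the 5 largest ranges in a genotype were named, and others were named after their values were seen. A marker gene of the lists is not reported here. Counts were filtered with filterByExpr (minimum count 10, minimum total 15), scaled by TMM and tested over the whole table by edgeR's quasi-likelihood method (version 4.0.16, R 4.3.3), 3 tumors against 3, with Benjamini-Hochberg adjustment over 13892 genes. CPM use the TMM-scaled library size, and log2 CPM a prior count of 2. Shared transcript windows were counted as 150-base stretches of GENCODE M21 transcripts found in another gene. Alternatives were DESeq2 1.42.0, limma-voom (limma 3.58.1), library size without TMM, other filters on low counts, FPKM with a pseudocount of 1, and each tumor left out in turn. On simulated counts with 200 genes changed 4-fold, of which 190 were tested among 13694 genes, 166 (87.4%) were recovered with 8 false calls. The changed genes were drawn at random from all genes tested. The recovery is therefore not a rate for P450 genes, whose median ranges within a genotype were wider.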

Additional observations from a re-analysis of the deposited data

How the results depend on the processing

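The counts of members at the limits were 0 in both directions under every alternative. The share of all genes called at the limits is given only for the main test. The 4 members lower at an unadjusted p under 0.05 became 3 to 5, with Cyp2s1 and Cyp4f18 among them under every alternative that gives a p. Cyp2c69 was not among them with DESeq2, without the filter on low counts, or without tumor 7, 71, 92, 93 or 94. Cyp2c40 was not among them with limma-voom or without tumor 7, 92 or 94. Cyp3a16 was among them without the filter on low counts. With a tumor left out, others entered, such as Cyp3a44 and Cyp4a31 without tumor 7 and Cyp2a5 without tumor 92. The share of all genes at an unadjusted p under 0.05, lower or higher, is not given for the alternatives. These counts therefore describe the members only. The 0 higher members became 1 with DESeq2 (Cyp2c55) and 2 without the filter on low counts (Cyp2c55 and Cyp3a57), and 0 to 2 with each tumor left out. Without that filter 1 member, Cyp3a57, lay above in every Prmt3 LKO tumor, beside 4.28% of all genes. With a tumor left out, 4 to 7 members lay below and 0 to 6 above, while 9.49% to 14.0% of all genes lay below and 8.44% to 13.2% above, since fewer tumors overlap less.

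The median range within Prmt3 f/f tumors was 0.63 to 0.90 and the 2-fold count 8 to 25 with 1 tumor left out, beside all-gene medians of 0.23 to 0.39 and shares of 6.92% to 13.3%. The count of 8 was found without tumor 7. Within Prmt3 LKO tumors these values were 0.40 to 0.98 and 17 to 24, beside 0.24 to 0.30 and 7.82% to 11.1%, and 0.40 was found without tumor 93. A range of 2 tumors is narrower by construction. On FPKM with a pseudocount of 1, which narrows the range of low genes, the Prmt3 LKO median was 0.67, beside 0.27 for all genes. The P450 share was 1.54% in Prmt3 f/f and 1.495% in Prmt3 LKO tumors as a share of summed FPKM, which weights by length.

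Of 24 members with a fold change given, 11 kept its sign under every alternative. With 1 tumor left out, log2 fold changes reached the other sign for Cyp1a2 (-0.28 to 0.40), Cyp2a4 (-0.74 to 0.20), Cyp2a5 (-0.96 to 0.23), Cyp2b9 (-0.20 to 0.95), Cyp2b10 (-0.93 to 1.53), Cyp2c29 (-0.04 to 1.45), Cyp2d9 (-0.20 to 0.46), Cyp2e1 (-0.48 to 0.49), Cyp2f2 (-0.43 to 1.39), Cyp3a25 (-0.17 to 0.52), Cyp4a10 (-0.76 to 1.40), Cyp4a14 (-1.16 to 1.82) and Cyp4f14 (-0.30 to 0.66). Cyp1a2 was also at -0.05 without TMM, -0.01 without the filter, -0.10 with limma-voom and -0.14 on FPKM, and Cyp2e1 at -0.02 without TMM. No paired analysis was possible because the groups share no replicate number. The 21 members not tested were left out of the main test by the filter on low counts. Without it, members with at least 1 count were fitted, among them Cyp3a16 and Cyp3a57.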
